A study of Drosophila melanogaster with 12 samples.

Results

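Proteasome subunit genes were followed in the heads of Drosophila melanogaster through the 40 probe sets that carry 1 gene whose current symbol begins with Prosalpha or Prosbeta, or with Rpn or Rpt and a number. The 40 probe sets stood for 40 genes of the 11982 genes with a probe set of their own. Of them, 26 were the general subunits (6 alpha, 6 beta, 7 of the base and 7 of the lid) and 14 were extra copies, 10 of core and 4 of regulatory subunits. A further 8 of the 48 genes whose symbols follow the pattern had no probe set of their own and were not analysed here: Prosalpha1, Prosalpha1R, Prosbeta1, Rpn9, Rpn10, Rpt1, Rpt6 and Rpt6R. The 12 Affymetrix arrays of total RNA from whole heads formed 4 groups of 3 arrays, namely conditioned flies at 24 h, non-conditioned flies at 24 h, conditioned flies at 0 h and non-conditioned flies at 0 h after the treatment. The conditioning is given in the labels only as a behavioural stimulus. All groups carry the unexpanded label OR, and sex, age and the number of flies per extract are not stated in the labels. Arrays within a group are called replicates 1 to 3 in the order of the series, which pairs no arrays across groups. The labels name only some arrays of the conditioned groups as biological duplicates, and how far the others come from separate flies is unstated, so the p-values cover the array-to-array spread alone, part of which may be technical.

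The proteasome degrades proteins that have been tagged with ubiquitin. Its core particle is a barrel of alpha rings, which gate the entry, and beta rings, which hold the peptidase sites of beta1, beta2 and beta5. The regulatory particle sits on the barrel: its base holds the ATPases Rpt1 to Rpt6, which unfold the substrate and thread it into the barrel, and its lid holds the deubiquitinase Rpn11. Subunits are needed in fixed proportions, and in many organisms their genes are transcribed together. In neurons, protein degradation by the proteasome is part of synapse growth and of long-lasting changes after learning. In Drosophila, many subunits have an additional copy expressed in the male germ line.

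The deposited values were linear intensities. Their 2% trimmed mean was 150 on every array, so a common scale had been set before deposit, and the array medians lay between 19.9 and 21.8. The labelled tissue was checked with 6 of 9 listed neuron and glia genes that had a probe set. Among them were trp of photoreceptors, elav and nSyb of neurons and repo of glia. The summed intensity of the 6 lay between 5976 and 7106 on the 12 arrays, most of it from trp, at 3910 to 5130. Of the others, elav lay between 623 and 766, nSyb between 689 and 937 and repo between 297 and 427. The lowest single value was 63.9, for brp, a protein of the presynaptic active zone. Arrays differed in transcripts of other tissues. The summed intensity of 3 yolk protein genes (Yp1, Yp2 and Yp3), which are made by females, ranged from 277 to 17710 in conditioned heads at 24 h, from 220 to 260 in non-conditioned heads at 24 h, from 199 to 8629 in conditioned heads at 0 h and from 199 to 260 in non-conditioned heads at 0 h. It was high on 3 arrays, which were conditioned 24 h replicates 1 and 2 and conditioned 0 h replicate 3. The summed intensity of the 10 listed genes of the male accessory gland with a probe set was 936 on non-conditioned 0 h replicate 3. It lay between 56.1 and 90.0 on the other 11 arrays. The sum of 10 of 12 listed testis genes lay between 35.4 and 79.0 on all 12 arrays.

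All 26 general subunits gave bright probe sets in fly heads and varied little between arrays. Their intensities lay between 284 and 995, well above the array medians. The ratio of the highest over the lowest array ran from 1.10 for the ATPase Rpt3 to 1.44 for the alpha ring subunit Prosalpha6, with a median of 1.21 over the 26 genes. The median SD within groups was 0.062 on the log2 scale (log2 of the intensity plus 16, used throughout), against 0.075 for 1650 other probe sets in the same range of mean intensity and 0.11 for all 11261 probe sets kept for testing. Rpn6, a lid subunit that in yeast clamps lid and core together, had the widest within-group spread of the general subunits, with an SD of 0.13. Intensities of different probe sets are not compared with each other, since probe sets differ in their response.

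Each array was also described by the median deviation of the 26 general subunits from their own means over the 12 arrays. All 6 arrays at 24 h lay above 0, at 0.080, 0.046 and 0.072 in conditioned heads and at 0.011, 0.069 and 0.042 in non-conditioned heads. All 6 arrays at 0 h lay below 0, at -0.065, -0.021 and -0.051 in conditioned heads and at -0.0064, -0.013 and -0.10 in non-conditioned heads. The lowest of these values belonged to the array with accessory gland transcripts, on which 10 of the 26 genes had their lowest level of the 12 arrays. Of the 26 genes, 23 had their highest level on an array at 24 h and 23 had their lowest on an array at 0 h. The same counts were not made over all probe sets. The median deviation of the 1650 other probe sets of that intensity was also lowest on non-conditioned 0 h replicate 3, at -0.022.

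**Figure D1:**
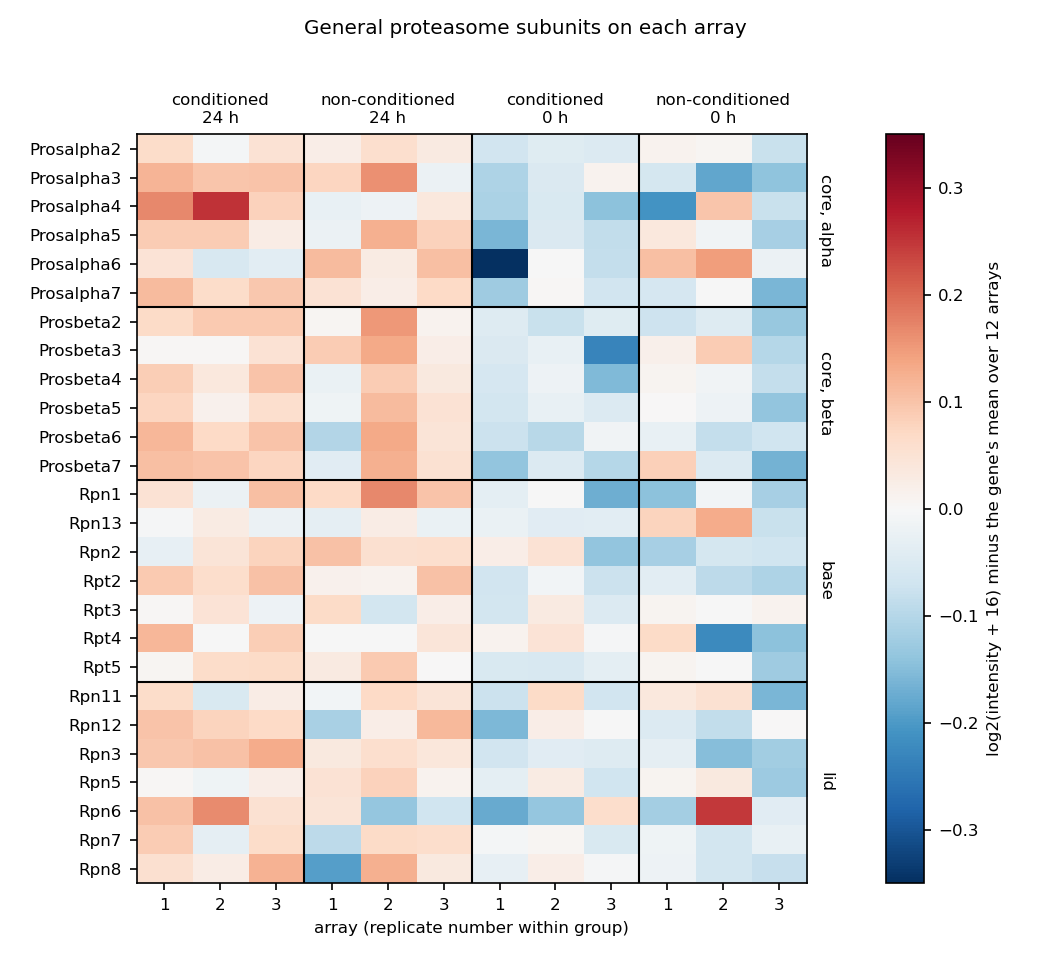
Heat map of the 26 general proteasome subunits (rows, by class) on the 12 arrays (columns, by group), coloured by log2(intensity + 16) minus the gene's mean over the 12 arrays. Red prevails on most arrays at 24 h and blue on most at 0 h, where non-conditioned replicate 3 has the lowest median deviation of -0.10. On non-conditioned replicate 1 the colours are mixed, with 14 of 26 genes above 0 at 24 h and 13 of 26 at 0 h.

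The extra copies were at the bottom of the intensity scale. All 14 lay below the array median on every array. The 13 copies that failed the filter on dim probe sets, which kept the upper 60% by mean, lay between 0.238 and 11.5 on the 12 arrays, and Rpn13R, the copy of a ubiquitin receptor of the base, lay between 3.81 and 20.7. Their highest values fell in all 4 groups, more often in the non-conditioned ones. The same count was not made for other dim probe sets, so this lean is not read as a trait of the copies. Of the 14 copies, 3 were highest on the array that also carried accessory gland transcripts. Prosalpha4T2, Prosbeta4R1 and Prosbeta5R1 were highest on non-conditioned 0 h replicate 1. The summed intensity of the 14 copies was 34.3 to 57.1 in conditioned heads at 24 h, 43.3 to 65.4 in non-conditioned heads at 24 h, 35.5 to 56.0 in conditioned heads at 0 h and 52.0 to 71.0 in non-conditioned heads at 0 h. Whether any of these probe sets exceeded its own background cannot be read from the deposited values, which hold no detection call. Of the 40 members, 27 therefore entered the tests, which were 12 core members and 15 regulatory members including Rpn13R.

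Heads at 24 h were compared with heads at 0 h over both arms, to ask how the subunits moved with time after the treatment. Proteasome subunits were slightly higher at 24 h: 8 of 27 members rose and 0 fell, by 0.13 to 0.18 on the log2 scale, or 1.09- to 1.13-fold on that scale. Over all 11261 probe sets, 6.75% rose and 5.22% fell at the same threshold, an adjusted p of 0.05. Those that rose were Prosalpha3, Prosalpha4, Prosalpha5, Prosalpha7 and Prosbeta2 of the core, Rpn1 and Rpt2 of the base and Rpn3 of the lid. Of the 27 members, 25 had a change above 0, against 47.7% of all probe sets, and their median was 0.098, against -0.0061 for all probe sets and 0.0053 for the 1650 others of the same intensity.

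In the alpha ring, which gates the core, 4 of 6 subunits rose. Prosalpha3 had intensities of 620.4, 611 and 612 in conditioned and 601, 638 and 561 in non-conditioned heads at 24 h, against 528, 549 and 575 in conditioned and 545, 500.0 and 515 in non-conditioned heads at 0 h. It averaged 607 ± 25.8 at 24 h and 535 ± 26.8 at 0 h (SD, n = 6 each), and the ranges overlapped through non-conditioned 24 h replicate 3. Its log2 change was 0.18 ± 0.041 (SE; adjusted p = 0.00966). Prosalpha7 had intensities of 636, 616 and 629.6 in conditioned and 609.8, 598 and 618 in non-conditioned heads at 24 h, against 538, 589.7 and 561 in conditioned and 564, 588 and 525 in non-conditioned heads at 0 h. All 6 arrays at 24 h were above all 6 at 0 h, with a log2 change of 0.14 ± 0.039 (SE; adjusted p = 0.0304). Prosalpha5 had intensities of 704, 703 and 673 in conditioned and 651, 722 and 699 in non-conditioned heads at 24 h, against 589.5, 637 and 622 in conditioned and 679, 655 and 609 in non-conditioned heads at 0 h. The ranges overlapped through non-conditioned 0 h replicates 1 and 2, and the log2 change of 0.13 ± 0.041 (SE) was the last to pass, at an adjusted p of 0.0498. Prosalpha4 rose by 0.17 ± 0.050 (SE; adjusted p = 0.0423). Prosalpha2 and Prosalpha6, both of the same ring, had changes of 0.072 and 0.068 that did not pass (adjusted p = 0.216 and 0.513).

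Among the beta subunits, 1 of 6 rose. This was Prosbeta2, which carries the trypsin-like site. It had intensities of 808, 822 and 822 in conditioned and 775, 858 and 777 in non-conditioned heads at 24 h, against 746, 729 and 747 in conditioned and 731, 746 and 702 in non-conditioned heads at 0 h. No array at 24 h was as low as the highest at 0 h, and it averaged 810.1 ± 31.2 at 24 h and 733 ± 17.5 at 0 h (SD, n = 6 each). The log2 change was 0.14 ± 0.037 (SE; adjusted p = 0.0213). Prosbeta5, which carries the chymotrypsin-like site, had intensities of 969.5, 929 and 959 in conditioned and 909, 995 and 953 in non-conditioned heads at 24 h, against 879, 904 and 888 in conditioned and 921, 908 and 834 in non-conditioned heads at 0 h. Its ranges overlapped, and its change of 0.10 ± 0.039 (SE) did not pass (adjusted p = 0.122). The structural subunits Prosbeta7, Prosbeta6 and Prosbeta4 had changes of 0.14, 0.12 and 0.11, with adjusted p-values of 0.0509, 0.0757 and 0.0835, the first of them just above the threshold. Prosbeta3 had a change of 0.10 (adjusted p = 0.128). Prosbeta1, with the caspase-like site, was not analysed here.

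Of the 7 base subunits, Rpn1 and Rpt2 rose. Rpn1 is the scaffold on which shuttle factors deliver ubiquitinated proteins. It had intensities of 443, 421 and 462 in conditioned and 449.5, 483 and 459 in non-conditioned heads at 24 h, against 417, 427 and 378 in conditioned and 386, 425 and 393 in non-conditioned heads at 0 h. Only conditioned 24 h replicate 2 lay within the range at 0 h, and the log2 change was 0.16 ± 0.043 (SE; adjusted p = 0.0247). Rpt2 is an ATPase that in yeast helps to open the gate of the core. It had intensities of 392, 384 and 396 in conditioned and 371, 371 and 395 in non-conditioned heads at 24 h, against 349.9, 365 and 348 in conditioned and 358, 344 and 339 in non-conditioned heads at 0 h. The 6 arrays at 24 h did not overlap the 6 at 0 h, and the log2 change was 0.13 ± 0.037 (SE; adjusted p = 0.0325). The ATPases Rpt3, Rpt4 and Rpt5 had changes of 0.020, 0.080 and 0.087, and the scaffold Rpn2 had 0.10; none passed (adjusted p from 0.121 to 0.818). Rpn13, a ubiquitin receptor that docks on Rpn2, had intensities of 455, 466 and 449 in conditioned and 446, 465 and 449 in non-conditioned heads at 24 h, against 449, 443 and 444 in conditioned and 482, 501 and 431 in non-conditioned heads at 0 h. Its change was -0.0084 ± 0.038 (SE; 95% confidence interval -0.089 to 0.072; adjusted p = 0.929). Its copy Rpn13R had -0.045 ± 0.12 (SE; adjusted p = 0.877).

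In the lid, 1 of 7 subunits rose. Rpn3, a structural subunit of the lid, had intensities of 455, 457 and 466 in conditioned and 435, 443 and 437 in non-conditioned heads at 24 h, against 405, 412 and 411 in conditioned and 415, 381 and 389 in non-conditioned heads at 0 h. The times did not overlap in either arm, and the average was 449 ± 12.3 at 24 h and 402 ± 13.8 at 0 h (SD, n = 6 each). Its log2 change was 0.15 ± 0.036 (SE; adjusted p = 0.0104). Rpn11, the deubiquitinase that removes ubiquitin chains as the substrate enters, had intensities of 507, 467 and 494 in conditioned and 482, 509.8 and 500.1 in non-conditioned heads at 24 h, against 459.5, 508 and 462 in conditioned and 497, 503 and 432 in non-conditioned heads at 0 h. Its ranges overlapped, and its change of 0.048 ± 0.044 (SE) did not pass (adjusted p = 0.567). Rpn12, a lid subunit that in yeast joins last in assembly, had a change of 0.090 (adjusted p = 0.215). Rpn5, Rpn6, Rpn7 and Rpn8 had changes of 0.053, 0.054, 0.053 and 0.057, which did not pass. In all, 4 of the 27 members (Prosalpha7, Prosbeta2, Rpt2 and Rpn3) had every array at 24 h above every array at 0 h, against 3.1% of all probe sets.

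The count of 8 depended on single arrays, while the median did not. Leaving out 1 array at a time gave 2 to 12 members called and medians of 0.082 to 0.11. Over all probe sets the same refits called 927 to 1619 in either direction, against 1348 with all 12 arrays. The fewest, 2, passed when the third non-conditioned array at 0 h, with its accessory gland transcripts, was left out, and the median was then 0.088. Of the conditioned arrays at 24 h, leaving out replicate 1, 2 or 3 gave 3, 4 and 3 members. Of the non-conditioned arrays at 24 h, replicates 1, 2 and 3 gave 12, 7 and 3. At 0 h, replicates 1, 2 and 3 gave 4, 5 and 3 for conditioned arrays, and replicates 1 and 2 gave 6 each for non-conditioned arrays. Prosalpha3 and Rpn3 passed without any single array, and the other 6 each lost the call without at least 1. Without the 3 arrays with yolk protein signal, which leaves 1 conditioned array at 24 h and 2 at 0 h, the median was 0.12. The 8 calls, those of Prosalpha3 and Rpn3 among them, were not shown to hold without these 3 arrays. A fit with 1 array in a group cannot decide single calls, so only the median is given. The part of the transcripts of other tissues in the single calls was otherwise not tested. In RNA from whole heads, more cells with high proteasome levels and more RNA per cell cannot be told apart. Within the 8 arrays with # in their titles the median change of the members was 0.073, and within the 4 arrays without it 0.14.

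Within the conditioned arm, all 27 members had a change above 0 between 24 h and 0 h, against 46.9% of all probe sets. The median was 0.12, against -0.010 for all probe sets. Groups of 3 against 3 arrays did not overlap for 17 members, all higher at 24 h, against 13.2% of all probe sets higher and 14.9% lower. These were 11 of the 12 core members (all but Prosalpha6) and 6 of 15 regulatory members (Rpn13, Rpt2, Rpt5, Rpn3, Rpn8 and Rpn12). The test called 1 member higher and 0 lower, against 2.7% and 1.97% of all probe sets. This was Prosalpha4, an alpha ring subunit, with intensities of 397, 422 and 372 in conditioned heads at 24 h against 324, 338 and 317 in conditioned heads at 0 h. It averaged 397 ± 24.7 at 24 h and 326 ± 11 at 0 h (SD, n = 3 each), a log2 change of 0.27 ± 0.071 (SE; 1.21-fold; adjusted p = 0.0396). In the non-conditioned arm Prosalpha4 had intensities of 345, 347 and 361 at 24 h against 302, 377 and 332 at 0 h, which overlapped. The call was lost without any 1 of the 6 conditioned arrays (adjusted p = 0.062 to 0.20), where the change was 0.23 to 0.31. Its adjusted p was 0.0501 without non-conditioned 0 h replicate 3. Once the 3 arrays with yolk protein signal were left out, the change was 0.14 (adjusted p = 0.94), which sets 1 conditioned array at 24 h against 2 at 0 h, with the spread taken from all groups.

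The other members of lowest p in the conditioned arm were Rpn3 at 0.16, Prosbeta7 at 0.19 and Prosalpha5 at 0.17, with adjusted p-values of 0.0897, 0.103 and 0.121. Prosbeta7, a beta subunit without a peptidase site, had intensities of 839.6, 836 and 822 in conditioned heads at 24 h against 706, 753 and 726 in conditioned heads at 0 h. The catalytic subunits Prosbeta2 and Prosbeta5 had changes of 0.14 and 0.10, and Rpn11 had 0.037; none passed (adjusted p = 0.16, 0.388 and 0.826).

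Within the non-conditioned arm, 24 of 27 members had a change above 0 between 24 h and 0 h, against 49.9% of all probe sets, with a median of 0.079 against -0.00021. By limma 0 of 27 members passed, against 3.15% of probe sets higher and 2.07% lower. At an unadjusted p of 0.05, 7 members were higher, against 9.71% of all probe sets. Groups did not overlap for 8 members, all higher at 24 h, against 9.97% of all probe sets higher and 9.19% lower. They were Prosalpha2, Prosalpha3, Prosalpha7 and Prosbeta2 of the core and Rpn1, Rpn2, Rpt2 and Rpn3 of the regulatory particle. The nearest to the threshold was Prosalpha3, with intensities of 601, 638 and 561 in non-conditioned heads at 24 h against 545, 500.0 and 515 at 0 h, a log2 change of 0.20 ± 0.058 (SE; adjusted p = 0.0587). Rpn1 had a change of 0.20 ± 0.061 (SE; adjusted p = 0.0695) and Rpn3 of 0.14 ± 0.050 (SE; adjusted p = 0.125). The 3 members below 0 were Rpn13 at -0.052, Rpn6 at -0.083 and Rpn13R at -0.093, none of which passed (adjusted p = 0.677, 0.682 and 0.831).

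**Figure D2:**
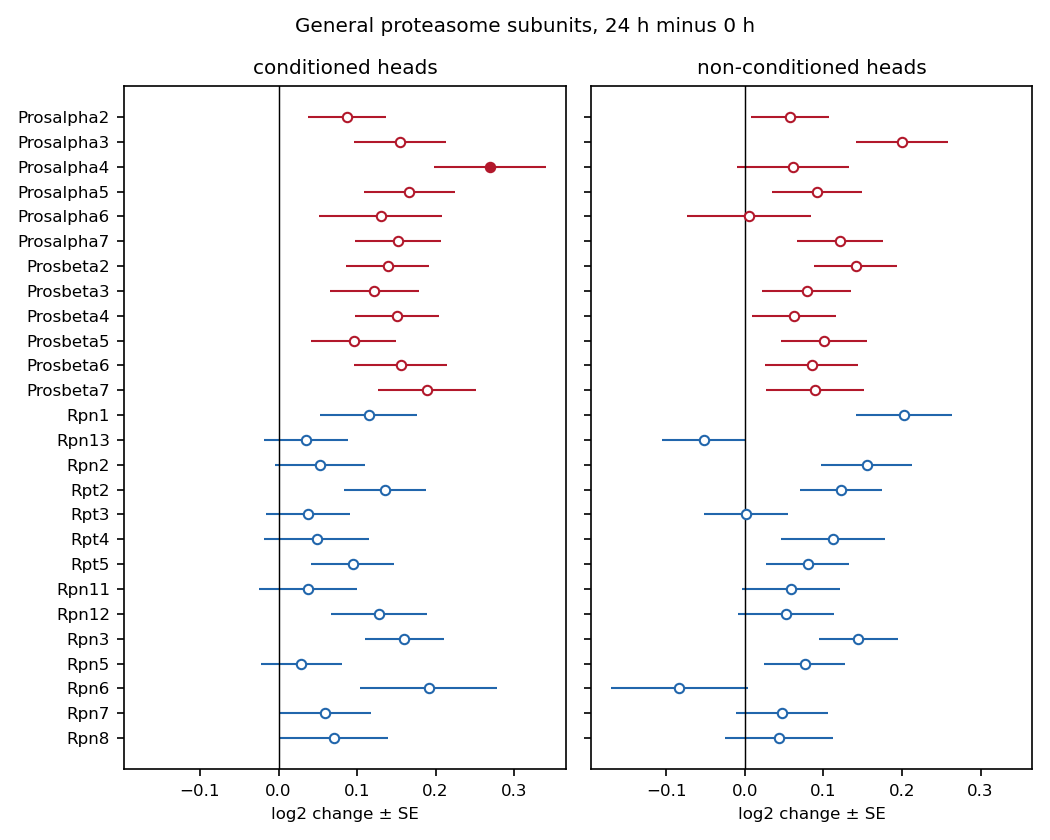
Log2 change of the 26 general subunits between 24 h and 0 h in conditioned heads (left) and in non-conditioned heads (right), with SE bars; core subunits are red, regulatory subunits blue, and a filled point passed an adjusted p of 0.05. All points on the left lie above 0, with Prosalpha4 the 1 filled point at 0.27, and 24 of 26 lie above 0 on the right.

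Core and regulatory members were set side by side by their medians, with no test between them. Over both arms the median change between 24 h and 0 h was 0.12 for the 12 core members and 0.057 for the 15 regulatory members; it was 0.13 for the alpha subunits, 0.11 for the beta subunits, 0.087 for the base and 0.054 for the lid. In conditioned heads it was 0.15 for core and 0.059 for regulatory members. In non-conditioned heads it was 0.087 for core and 0.059 for regulatory members. All 12 core members lay above 0 in both arms, and of the regulatory members all 15 did so in conditioned and 12 in non-conditioned heads. Of the tested members, 5 of 12 core and 3 of 15 regulatory members rose over both arms. The core median on single arrays was 0.087, 0.067 and 0.078 in conditioned and -0.0042, 0.12 and 0.042 in non-conditioned heads at 24 h, against -0.091, -0.045 and -0.076 in conditioned and 0.0053, -0.013 and -0.11 in non-conditioned heads at 0 h. Non-conditioned 24 h replicate 1 lay below non-conditioned 0 h replicate 1, against the direction of the group medians. The regulatory median was 0.063, 0.030 and 0.068 in conditioned and 0.032, 0.056 and 0.040 in non-conditioned heads at 24 h, against -0.042, 0.023 and -0.048 in conditioned and -0.015, -0.0083 and -0.11 in non-conditioned heads at 0 h. Without the 3 arrays with yolk protein signal the medians over both arms were 0.14 for core and 0.095 for regulatory members.

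**Figure D3:**
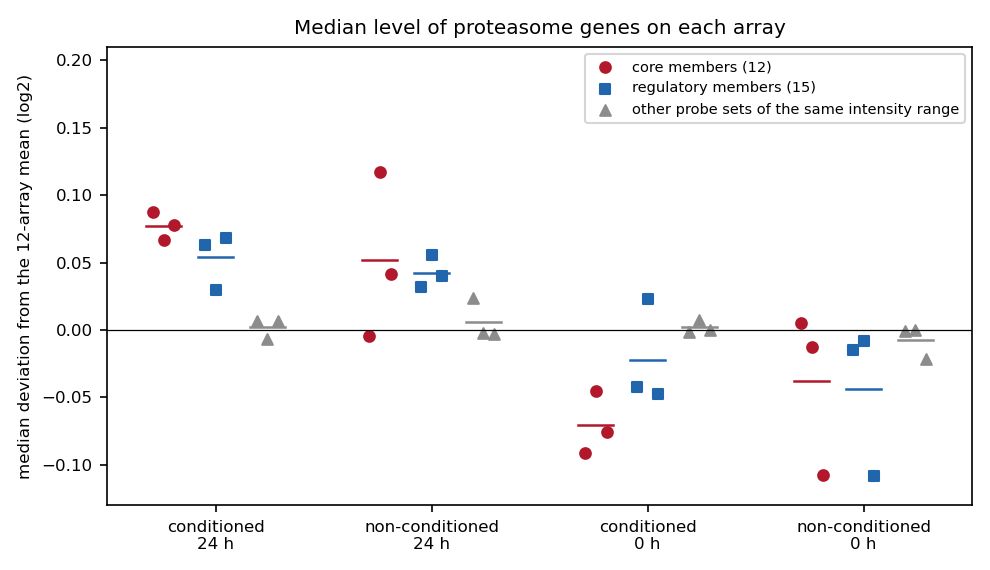
Median deviation from the 12-array mean (log2) on each array, for the 12 core members (red circles), the 15 regulatory members (blue squares) and 1650 other probe sets of the same intensity range (grey triangles), by group; each point is an array and each line the mean of 3 arrays. Core members run from -0.11 to 0.12, while the other probe sets stay between -0.022 and 0.024.

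Conditioned heads were compared with non-conditioned heads at each time, which asks how the subunits differed with the behavioural treatment. At 24 h 0 of 27 members passed, as did 0% of all probe sets. At an unadjusted p of 0.05 by the same limma fit, 1 member was called, against 4.33% of all probe sets. The median change was 0.026, with 0.030 for core and 0.011 for regulatory members, against 0.00010 for all probe sets. Groups did not overlap for 3 members higher in conditioned heads and 0 lower, against 5.31% and 5.16% of all probe sets. These were Prosalpha4, Rpn6 and Rpn3. Prosalpha4 had intensities of 397, 422 and 372 in conditioned against 345, 347 and 361 in non-conditioned heads, a change of 0.17 ± 0.071 (SE; adjusted p = 0.999). Rpn6 had intensities of 713, 746 and 689 in conditioned against 684, 602 and 630.3 in non-conditioned heads, a change of 0.16 ± 0.087 (SE; adjusted p = 0.999). Rpn3 had a change of 0.065 ± 0.050 (SE; adjusted p = 0.999). On the lower side the lowest p-values belonged to Prosalpha6 at -0.10, Rpn1 at -0.067 and Prosbeta3 at -0.061, each with an adjusted p of 0.999. For the catalytic and deubiquitinating subunits the 95% confidence intervals of the change were -0.086 to 0.14 for Prosbeta2, -0.12 to 0.12 for Prosbeta5 and -0.16 to 0.11 for Rpn11. The arrays with high yolk protein signal were 2 of the 3 conditioned arrays and 0 of the 3 non-conditioned arrays at 24 h; without them, and with 1 conditioned array left at this time, 0 members passed and the median was 0.056. Leaving out 1 array at a time gave medians of -0.0058 to 0.042 over members and -0.0062 to 0.048 for core members; both lay below 0 without non-conditioned 24 h replicate 1.

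At 0 h 0 of 27 members passed, against 0.577% of all probe sets. At an unadjusted p of 0.05 by the same limma fit, 1 member was called, against 12.2% of all probe sets. The median change was -0.00096, with -0.035 for core and 0.0030 for regulatory members, against 0.0096 for all probe sets. Within the arrays with # in their titles the median over members was -0.030 (core members -0.036). Within those without, 1 array per group, it was 0.057 (core members 0.044). Groups did not overlap for 0 members in either direction, against 9.84% of probe sets higher and 7.71% lower. The member called at the unadjusted level was Prosalpha6, with intensities of 284, 366 and 345 in conditioned heads against 396, 408 and 361 in non-conditioned heads. Conditioned 0 h replicate 1 was the lowest of its 12 arrays, and the groups overlapped through conditioned 0 h replicate 2. Its log2 change was -0.22 ± 0.079 (SE; adjusted p = 0.242). Prosbeta3 and Rpn13 followed at -0.10 and -0.076 (adjusted p = 0.481 and 0.608). On the higher side the lowest p-values belonged to the ATPase Rpt4 at 0.12, Prosalpha3 at 0.080 and Rpn2 at 0.061 (adjusted p = 0.507, 0.622 and 0.723). The intervals were -0.084 to 0.14 for Prosbeta2, -0.11 to 0.12 for Prosbeta5, -0.13 to 0.13 for Rpn11 and -0.30 to 0.072 for Rpn6. Averaged over both times, 0 of 27 members passed, against 0.115% of all probe sets, and 1 was called at an unadjusted p of 0.05 in limma, against 10.2%. This was again Prosalpha6, at -0.16 ± 0.056 (SE; adjusted p = 0.356). Its neighbours in p were Prosbeta3 at -0.083 and Rpt4 at 0.086 (adjusted p = 0.503 and 0.557).

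**Figure D4:**
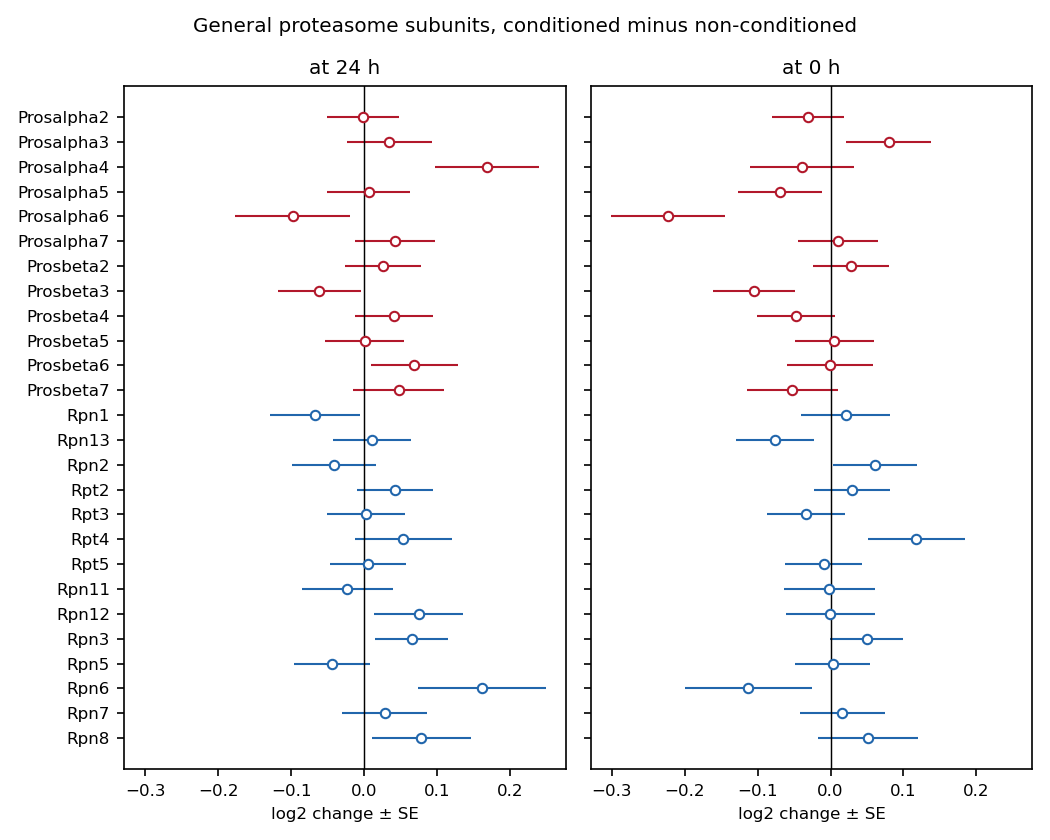
Log2 change of the 26 general subunits between conditioned and non-conditioned heads at 24 h (left) and at 0 h (right), with SE bars; core subunits are red and regulatory subunits blue. No point is filled, since none passed an adjusted p of 0.05; Prosalpha4 at 0.17 and Prosalpha6 at -0.22 lie farthest from 0 at their times.

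The effect of conditioning at 24 h minus that at 0 h tested directly whether the change with time differed between the arms. By limma 0 of 27 members passed, as did 0% of all probe sets, and 1 was called at an unadjusted p of 0.05, against 7.19%. The median over members was 0.030, with 0.057 for core and 0.015 for regulatory members, against -0.0086 for all probe sets. With 1 array left out the median over members was 0.0038 to 0.057. It was 0.036 within the arrays with # in their titles and -0.011 within those without (core members 0.073 and -0.023), where 20 and 10 of the 26 general subunits lay above 0. The member called at the unadjusted level was Rpn6. It had intensities of 713, 746 and 689 in conditioned and 684, 602 and 630.3 in non-conditioned heads at 24 h, against 585, 602 and 692 in conditioned and 609, 789.8 and 645 in non-conditioned heads at 0 h. Non-conditioned 0 h replicate 2 held the highest of the 12 values, and the other 2 arrays of that group lay within the range of conditioned heads at 0 h. The difference between the arms was 0.27 ± 0.12 (SE; adjusted p = 0.657), and it was 0.16 to 0.37 when 1 array at a time was left out. Prosalpha4 followed at 0.21 ± 0.10 (SE; adjusted p = 0.701), with its 3 conditioned arrays at 24 h above 8 of the other 9 arrays. For the difference between core and regulatory members no test was made.

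Genes around the proteasome were followed by lists. Of 15 listed partners, 12 had a probe set, and over both arms 1 rose and 2 fell between 24 h and 0 h, against 6.75% and 5.22% of all probe sets, with a median of 0.051. Pomp, the maturation factor that assembles the core particle, had intensities of 541, 542 and 509 in conditioned and 482, 476 and 528 in non-conditioned heads at 24 h, against 449.8, 418 and 394 in conditioned and 390.5, 392 and 498 in non-conditioned heads at 0 h. Non-conditioned 0 h replicate 3, with accessory gland transcripts, overlapped the range at 24 h, and the other 5 arrays at 0 h lay below it. The log2 change was 0.27 ± 0.056 (SE; adjusted p = 0.00483). In the conditioned arm alone Pomp rose by 0.33 ± 0.080 (SE; adjusted p = 0.0276), and in the non-conditioned arm it had 0.21 ± 0.080 (SE; adjusted p = 0.151). Without the 3 arrays with yolk protein signal its change over both arms, with 1 conditioned array left at 24 h and 2 at 0 h, was 0.10 (adjusted p = 0.59) and that in the conditioned arm -0.012 (adjusted p = 0.99). The call in the conditioned arm was also lost without conditioned 24 h replicate 1 or 2 or conditioned 0 h replicate 2 or 3 (changes of 0.24 to 0.33).

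maf-S, the small Maf protein that binds DNA together with cnc, the fly form of the factor that induces proteasome genes, fell. It had intensities of 809.9, 786 and 785 in conditioned and 754, 826 and 815 in non-conditioned heads at 24 h, against 850.0, 907 and 980.1 in conditioned and 946, 893 and 918 in non-conditioned heads at 0 h. All 6 arrays at 24 h lay below all 6 at 0 h, with a log2 change of -0.20 ± 0.041 (SE; adjusted p = 0.00467). It passed without any single array but not without the 3 arrays with yolk protein signal (change -0.19, adjusted p = 0.21). cnc itself had intensities of 1342, 1447 and 1239.8 in conditioned and 1172, 676 and 1473 in non-conditioned heads at 24 h, against 1063, 1071 and 769.5 in conditioned and 811, 1029.5 and 1452 in non-conditioned heads at 0 h at its brighter probe set of 2. It spread widely within groups, with SDs of 104 to 403, and its change of 0.23 ± 0.15 (SE) did not pass (adjusted p = 0.406). Npl4, a cofactor of the segregase TER94 that extracts ubiquitinated proteins, had intensities of 290.2, 275 and 286 in conditioned and 303, 298 and 271 in non-conditioned heads at 24 h, against 330.0, 292 and 324 in conditioned and 335, 322 and 317 in non-conditioned heads at 0 h. Conditioned 0 h replicate 2 lay within the range at 24 h, and the change was -0.15 ± 0.044 (SE; adjusted p = 0.0364). That call was lost without any 1 array other than conditioned 0 h replicate 2 and non-conditioned 24 h replicates 1 and 2 (changes of -0.16 to -0.12). Without the 3 arrays with yolk protein signal the change was -0.087 (adjusted p = 0.67).

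None of the ubiquitin genes passed the test. At an unadjusted p of 0.05 in limma, 12.5% of all probe sets were higher and 11.9% lower over both arms, beside which the list counts at that level stand. Of 5 listed ubiquitin and E1 genes, 4 had a probe set; 0 rose and 0 fell in the limma fit, and 1 was lower at an unadjusted p of 0.05. Their median change over both arms was -0.12. The polyubiquitin gene Ubi-p63E had -0.13 ± 0.051 (SE; adjusted p = 0.122), and RpL40, which encodes ubiquitin fused to a ribosomal protein, had -0.11 ± 0.064 (SE; adjusted p = 0.3). The COP9 signalosome, a complex built like the lid that acts on cullin ligases, had 7 of 8 genes measured, with 0 called, 0 also at an unadjusted p of 0.05 in limma, and a median of 0.0079. Of its genes, CSN7 had a change of 0.075 and CSN4 of 0.082 (adjusted p = 0.285 and 0.353). The cullin ligases, which attach ubiquitin, had 9 of 9 genes measured, with 0 called, 1 higher at an unadjusted p of 0.05 in limma, and a median of -0.0022. Cul2 had a change of 0.11 and slmb of 0.087 (adjusted p = 0.151 and 0.217). The head neuron and glia genes had a median change of -0.067 over both arms, with 0 of 6 called at the brightest probe set of each and 1 higher and 1 lower at an unadjusted p of 0.05 in limma. A dimmer probe set of brp, with a mean intensity of 13.0, had -0.41 over both arms (adjusted p = 0.023) and -0.57 in non-conditioned heads (adjusted p = 0.0434), while the brightest had 0.024 over both arms (adjusted p = 0.908). In the comparisons of conditioned with non-conditioned heads 0 genes of these 4 lists of partners, ubiquitin, signalosome and cullin genes were called at either time, while at an unadjusted p of 0.05 in limma 1 was higher at 24 h (Uch-L5, a deubiquitinase that binds Rpn13) and 1 at 0 h (CSN8), against 2.23% of all probe sets higher at 24 h and 6.79% at 0 h. The lowest adjusted p was that of CSN8 at 0 h, at 0.22 ± 0.068 (SE; adjusted p = 0.168), against -0.10 ± 0.068 (SE; adjusted p = 0.999) at 24 h.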

How the data were processed

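The deposited values were linear intensities of 18952 probe sets on 12 Affymetrix arrays of total head RNA; which program, background correction and scaling made them is not given in the sources used here. After 183 control probe sets were left out, the upper 60% by mean were kept (11261). One current symbol was available for 13647 probe sets, of which 13544 matched a RefSeq gene identifier, several for 402 and none for 4903. The log2 of the intensity plus 16 went into limma 3.58.1 (R 4.3.3) as 4 group means plus a term for # in the sample title, with a mean-variance trend, tested on simulated data. There were 7 comparisons, two-sided, each Benjamini-Hochberg adjusted over all kept probe sets, with a threshold of 0.05. Changes on this scale understate those of dim genes. The number of arrays limits the precision. Genes named in a comparison were the members past the threshold, up to 3 more of lowest p in each direction, always Prosbeta2, Prosbeta5, Rpn6 and Rpn11, and up to 2 genes of lowest p per list. A gene with several probe sets is represented by the brightest. Members and lists were chosen with earlier results of these data known. Alternatives covered scaling, offset, filter, fit, threshold and left-out arrays.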

Additional observations from a re-analysis of the deposited data

How the results depend on the processing

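The proteasome counts of 0 in the comparisons of conditioned with non-conditioned heads, in the average over times and in the difference between arms stayed at 0 under all alternatives run. The count of members that rose between 24 h and 0 h over both arms was 8 as reported. It was 1 on the 8 arrays with # alone, 2 with no mean-variance trend and 4 after quantile normalization. With no filter it was 6, and with an offset of 1 it was 7. It was 9 with no title term, with an offset of 64 or with the upper 40% of probe sets. Median centring gave 10, an adjusted p of 0.10 gave 11 and array weights gave 12. With 1 array left out it was 2 to 12. Refitted without the 3 arrays with yolk protein signal, with 1 conditioned array left at 24 h, the median change was 0.12. No count from that refit is set beside the 8, since 1 array in a group cannot decide single calls. The 8 calls were therefore not shown to hold without these 3 arrays. In conditioned heads the count of 1 became 0 on the # arrays alone, after quantile normalization, after median centring, with no filter, with no trend and without the yolk protein arrays, 5 with array weights or with the groups of the comparison alone, 2 at an adjusted p of 0.10, and 0 to 1 with 1 array left out. In non-conditioned heads the count of 0 became 1 with no title term, with the upper 40% of probe sets or with array weights, and 2 after median centring or at an adjusted p of 0.10. The median change in non-conditioned heads was 0.039 on the # arrays alone and 0.12 after median centring (regulatory members 0.099). After median centring the median difference between arms was -0.010 (regulatory members -0.025). Without the yolk protein arrays that difference was 0.082 (regulatory 0.051), the change in conditioned heads 0.17 (regulatory 0.12), the regulatory change over both arms 0.095, the regulatory difference between conditioned and non-conditioned heads at 24 h 0.054, and the change of Pomp in conditioned heads -0.012. With 1 array left out, the regulatory median was -0.0058 to 0.053 for conditioned against non-conditioned heads at 24 h and 0.029 to 0.099 for time in non-conditioned heads, and the median for time in conditioned heads was 0.076 to 0.14. Over all probe sets the counts moved too. With 1 array left out they were 14 to 150 at 0 h (65 as reported) and 0 to 6 at 24 h (0). They were 0 to 8 for the difference between arms (0) and 0 to 21 for conditioning averaged over times (13). For time they were 227 to 729 (526) in conditioned heads, 297 to 755 (588) in non-conditioned heads and 927 to 1619 (1348) over both arms. Under the other alternatives they were, in the same order of comparisons, 8 to 146, 0 to 8, 0 to 21, 0 to 27, 18 to 1095, 246 to 900 and 231 to 1873. Of the 1760 alternative values of single genes, 1544 kept direction and side of the threshold, 107 lost the call, 25 gained it and 84 changed sign, in 24 results. Apart from Pomp in conditioned heads, none of these 24 had passed the test, and the changes as reported are given in parentheses. For conditioned against non-conditioned heads at 24 h, Prosbeta2 (0.026) was -0.00034 on the # arrays alone and -0.0051 to 0.072 with 1 array left out. Prosbeta5 (0.00060) was -0.0034 on the # arrays alone, -0.011 after median centring, -0.011 with array weights and -0.039 to 0.029 with 1 array left out. Rpn1 (-0.067) was 0.014 without the yolk protein arrays. Prosbeta3 (-0.061) was 0.050 without the yolk protein arrays. Rpn11 (-0.023) was 0.054 without the yolk protein arrays and -0.059 to 0.022 with 1 array left out. For the same contrast at 0 h, Prosbeta2 (0.028) was -0.0024 on the # arrays alone and -0.0017 without the yolk protein arrays. Prosbeta5 (0.0053) was -0.037 on the # arrays alone, -0.014 without the yolk protein arrays and -0.040 to 0.029 with 1 array left out. Rpn11 (-0.0016) was 0.027 after median centring, 0.0024 with array weights and -0.066 to 0.035 with 1 array left out. Rpn6 (-0.11) was -0.21 to 0.0035 with 1 array left out. For conditioning averaged over times, Prosbeta2 (0.027) was -0.0014 on the # arrays alone. Prosbeta5 (0.0030) was -0.020 on the # arrays alone, -0.0022 with array weights and -0.020 to 0.017 with 1 array left out. Rpn6 (0.024) was -0.020 on the # arrays alone, -0.028 without the yolk protein arrays and -0.023 to 0.083 with 1 array left out. Rpn11 (-0.012) was 0.021 without the yolk protein arrays and -0.045 to 0.010 with 1 array left out. For the difference between arms, Prosbeta2 (-0.0019) was 0.0020 on the # arrays alone, 0.0086 after quantile normalization, 0.012 with array weights, 0.082 without the yolk protein arrays and -0.033 to 0.044 with 1 array left out. Prosbeta5 (-0.0047) was 0.033 on the # arrays alone, 0.067 without the yolk protein arrays and -0.045 to 0.040 with 1 array left out. Rpn11 (-0.022) was 0.022 on the # arrays alone, 0.066 without the yolk protein arrays and -0.058 to 0.043 with 1 array left out. Rpt4 (-0.064) was -0.15 to 0.0030 with 1 array left out. For time in non-conditioned heads, Rpn11 (0.059) was -0.014 on the # arrays alone and -0.0060 to 0.093 with 1 array left out. Rpn6 (-0.083) was -0.16 to 0.033 with 1 array left out. Rpn13R (-0.093) was -0.28 to 0.029 with 1 array left out. For time over both arms, Rpn11 (0.048) was -0.0025 on the # arrays alone. Rpn13 (-0.0084) was 0.012 after median centring, 0.00044 with array weights, 0.030 without the yolk protein arrays and -0.035 to 0.0094 with 1 array left out. Rpn13R (-0.045) was 0.22 without the yolk protein arrays and -0.14 to 0.016 with 1 array left out. Of the 495 alternative medians, 29 changed sign. The cause of these changes was not tested. No paired analysis was possible because the labels number no replicates, and the numbers used here follow the order of the series. The 3 arrays per group limit the precision, and with no detection calls the extra copies have no lower bound of their own.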
